A study of Mus musculus with 9 samples.

Results

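The connexin genes Gja1, Gjb6 and Gjb2, 3 of the 18634 genes in the deposited table, were followed across cell types and libraries. They were chosen by name, as the connexins known from astrocytes. The rule uses no measured value, but earlier results of these data were known when it was set. C57BL/6 mice (C57BL/6 J in the study's methods), male and wild type, were sampled at 9 to 11 weeks in 3 groups. The NS group slept normally, the SD group was kept awake for 12 h from lights on, and the RS group was kept awake in the same way and then allowed recovery sleep, which is given as 24 h in 1 place of the labels and as 12 h in another. The study's methods give 24 h. Brainstem, cortex and hypothalamus were taken at ZT12, the time of lights off, and cells of 3 mice were pooled for each region and group. Each of the 9 combinations was thus 1 library, with no replicate, so no test was made and intervals cover counting error only. Deprivation was by a motor-driven sweeping bar, and the table carried 29571 cells in 9 libraries, numbered here by their order in the table.

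Connexins are membrane proteins that assemble into channels, and channels of neighbouring cells dock to form gap junctions, through which ions and small molecules pass. Astrocytes are joined by such junctions into large networks that spread potassium and metabolites. Gja1 encodes Cx43 and Gjb6 encodes Cx30, the main connexins of astrocytes. Gjb2 encodes Cx26, which is known from astrocytes, from the meninges and from the supporting cells of the inner ear. Oligodendrocytes and neurons use other members of the family, such as Gjd2 in neurons.

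Gja1 (ENSMUSG00000050953.10) lies on the plus strand at chr10:56377330-56402513 of GRCm38 (GENCODE M21 annotation), with its coding sequence in 1 exon at chr10:56387547-56388692. Gjb6 (ENSMUSG00000040055.9) lies on the minus strand at chr14:57123303-57133611, with 1 coding exon at chr14:57124020-57124802. Gjb2 (ENSMUSG00000046352.7) lies on the same strand at chr14:57098600-57104702, also with 1 coding exon, at chr14:57100072-57100749. Between the genes Gjb2 and Gjb6 lie 18600 bases, which hold the annotated gene Gm4491, and their annotated 5′ ends are 28909 bases apart. No stretch of 31 bases of the Gjb6 or Gjb2 coding transcripts occurred in a transcript of another gene. In Gja1, 37 of 3775 such stretches did. The promoter windows of the 3 genes, from RefSeq on GRCm38.p6, are shown because Gjb6 and Gjb2 are neighbours. Each runs from 250 bases before the annotated start through the first 50 bases of the transcript, 5′ to 3′ on the gene's own strand. Capitals mark exact matches, on either strand, to GGGCGG (the GC box), CCAAT (the CCAAT box), TATAAA (the TATA box) or TGAGTCA (an AP-1 sequence). No match of 1 motif overlapped another.
Gja1 promoter, chr10:56377050-56377349, plus strand: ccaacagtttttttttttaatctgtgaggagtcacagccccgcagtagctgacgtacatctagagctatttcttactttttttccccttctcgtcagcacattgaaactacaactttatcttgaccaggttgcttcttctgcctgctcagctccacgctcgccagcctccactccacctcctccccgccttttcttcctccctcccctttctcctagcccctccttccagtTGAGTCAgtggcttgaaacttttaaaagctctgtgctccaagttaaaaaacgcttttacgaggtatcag
Gjb6 promoter, chr14:57133562-57133861, minus strand: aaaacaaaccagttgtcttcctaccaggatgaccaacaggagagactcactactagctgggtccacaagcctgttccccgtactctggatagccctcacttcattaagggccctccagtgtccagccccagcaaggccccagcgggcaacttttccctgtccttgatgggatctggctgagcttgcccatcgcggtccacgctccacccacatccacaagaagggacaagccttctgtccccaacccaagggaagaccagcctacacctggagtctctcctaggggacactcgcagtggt
Gjb2 promoter, chr14:57104653-57104952, minus strand: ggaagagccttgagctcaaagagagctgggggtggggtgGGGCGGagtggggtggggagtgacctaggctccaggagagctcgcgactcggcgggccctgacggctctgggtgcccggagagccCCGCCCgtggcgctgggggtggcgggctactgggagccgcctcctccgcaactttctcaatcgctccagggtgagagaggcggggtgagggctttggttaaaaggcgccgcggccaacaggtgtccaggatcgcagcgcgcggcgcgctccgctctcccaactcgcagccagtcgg

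The 3 windows differed in base composition. The Gjb2 window was 70% G or C with 27 CG dinucleotides, and 9.58% of the 32851 windows of the same length had as much G and C or more. The Gjb6 window was 57.3% G or C with 6 CG dinucleotides, and the Gja1 window 47.7% with 8, against medians over all windows of 52.7% and 7. Gjb2 held 2 GC boxes, which start 211 bases before the annotated start on the gene's strand and 126 bases before it on the other. The GC box was found in 35.7% of all windows, and neither the Gja1 nor the Gjb6 window held 1. The only match in the Gja1 window was the AP-1 sequence, 19 bases before the RefSeq start, a sequence found in 5.2% of all windows. For Gja1 the RefSeq start lies before the GENCODE start given above, so the match is farther from the latter. The Gjb6 window held 0 matches to the 4 motifs. CCAAT was found in 37.4% and TATAAA in 13.6% of all windows, and in 0 of these 3. A match is a description of the letters in a window, not a binding site.

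Each cell's transcripts were counted as UMIs (unique molecular identifiers), so that copies of 1 molecule count once. A level is the gene's number of UMIs in a group of cells for every 1000000 UMIs of all genes in those cells (CPM), with exact 95% Poisson intervals, and shares are percentages of cells with at least 1 UMI, with exact 95% Clopper-Pearson intervals. A transcript gives 1 UMI whatever its length, so levels of different genes are compared without a length correction, and differences in capture between genes were not measured. Library totals ran from 1522766 to 5488950 UMIs, cells per library from 2575 to 3916, and median UMIs per cell from 402 to 1055. The growth hormone gene Gh took 25.3%, 27.9% and 32.1% of the UMIs in libraries 4, 5 and 6 and at most 0.00755% in each of the others, which lowers the CPM of every other gene there. Of 29015 distinct cell barcodes, 549 occurred in more than 1 library. Library 7 is brainstem NS. It held all of the 1999 barcodes available here from the study's list for that sample, against 5 to 13 in each other library. For the other 8 libraries neither region nor sleep group was assigned, so no sleep groups or regions were compared.

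The 1999 listed cells, of 3731 in library 7, carry the study's cell type names, and the names were checked against marker genes. The 188 listed astrocytes held UMIs of 8 of 8 astrocyte markers, among them Aldoc at 3901 CPM in 92.6% of cells, Slc1a2, a glutamate transporter, at 2153 CPM in 73.9%, and Agt at 2212 CPM in 73.4%. In all other listed cells Aldoc stood at 47.6 CPM. The 43 cells listed as oligodendrocytes did not carry the markers of that type. They held 63 UMIs of Cldn11, 1 of Mbp, and 0 of Mag, Ermn and Mobp, while Islr, Dcn and Col1a2, markers of leptomeningeal fibroblasts, had 52, 44 and 32 UMIs. Of the other markers of those fibroblasts, Col1a1 had 7 UMIs, Lum 2 and Slc6a13 1, the last pair at a lower level than in the other listed cells. Their leading genes by ratio to the other listed cells were Prg4, Dapl1 and Cldn11, and 39 of the 43 fell in the cluster of all cells with leptomeningeal fibroblast markers. When library 7 was clustered alone, 35 fell in a cluster without a name and 8 in a neuron-like one. They are called the Prg4-led listed cells here.

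In the brainstem of normally sleeping mice, Gja1 was highest in astrocytes, at 1777 CPM (1582 to 1989) from 302 UMIs in 188 cells. It was found in 133 of them, 70.7% (63.7 to 77.1), and a single astrocyte held up to 6 UMIs. In ependymocytes, the ciliated cells that line the ventricles (EPC), Gja1 stood at 446 CPM (351 to 558), with a UMI in 42 of 88 cells. The Prg4-led listed cells were next with 196 CPM (114 to 314), and endothelial cells, which line the vessels, had 81.7 CPM (61.2 to 107). The intervals of these 4 groups do not overlap, so their order holds against counting error. Of the smaller neuron groups, glutamatergic neurons had 57.2 CPM (11.8 to 167) from 3 UMIs, all in 1 cell, and other neurons 101.9 CPM (21 to 298), also from 3 UMIs. Pericytes had 27 CPM, microglia 19.7 and arterial smooth muscle cells (VSMCA) 9.74, with intervals that overlap each other. Macrophages had 0 UMIs of Gja1, where 3 UMIs, the limit taken for a count of 0, would be 36.1 CPM, and hemoglobin-expressing vascular cells (HbVC) had 2 UMIs. The single cell listed as Unknown had no UMI of any of the 3 genes. Of the 473 Gja1 UMIs in all listed cells, 63.8% lay in astrocytes, 16.1% in EPC and 11.2% in endothelial cells.

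Gjb6 was also highest in astrocytes, and the order of the other types differed from that of Gja1. Astrocytes held 120 UMIs, 706 CPM (585 to 844), with a UMI in 81 of 188 cells, 43.1% (35.9 to 50.5). The Prg4-led listed cells had 289 CPM (187 to 426) from 25 UMIs in 17 cells, and pericytes 135 CPM (82.6 to 209) from 20 UMIs in 13 cells, with overlapping intervals. EPC, second for Gja1, had 17.6 CPM of Gjb6 (3.63 to 51.5) from 3 UMIs, and endothelial cells 4.63 CPM (0.954 to 13.5). Microglia stood at 15.8 CPM, VSMCA at 19.5, macrophages at 24.1 and glutamatergic neurons at 38.1, each from 2 to 8 UMIs and not separable by their intervals. Other neurons and HbVC had 0 UMIs of Gjb6. Of 189 UMIs, 63.5% lay in astrocytes, 13.2% in the Prg4-led cells and 10.6% in pericytes.

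Gjb2 was low in listed astrocytes. They held 2 UMIs in 188 cells, 11.8 CPM (1.42 to 42.5), which overlaps the 12.5 CPM (8.17 to 18.3) of all other listed cells. Of the 26 UMIs in those other cells, 14 lay in the Prg4-led listed cells and 9 in pericytes. The highest level, 162 CPM (88.3 to 271), was in the 43 Prg4-led listed cells, which held 14 of the 28 Gjb2 UMIs in listed cells. Pericytes followed with 60.8 CPM (27.8 to 115) from 9 UMIs, an interval that overlaps theirs. Macrophages, microglia and endothelial cells had 1 UMI each, and EPC, VSMCA, both neuron groups and HbVC had 0. For VSMCA, the limit of 3 UMIs would be 9.74 CPM. Gja1 and Gjb6 had 50 or more UMIs in the listed cells and entered comparisons over all genes, while Gjb2, with 28, did not.

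**Figure D1:**
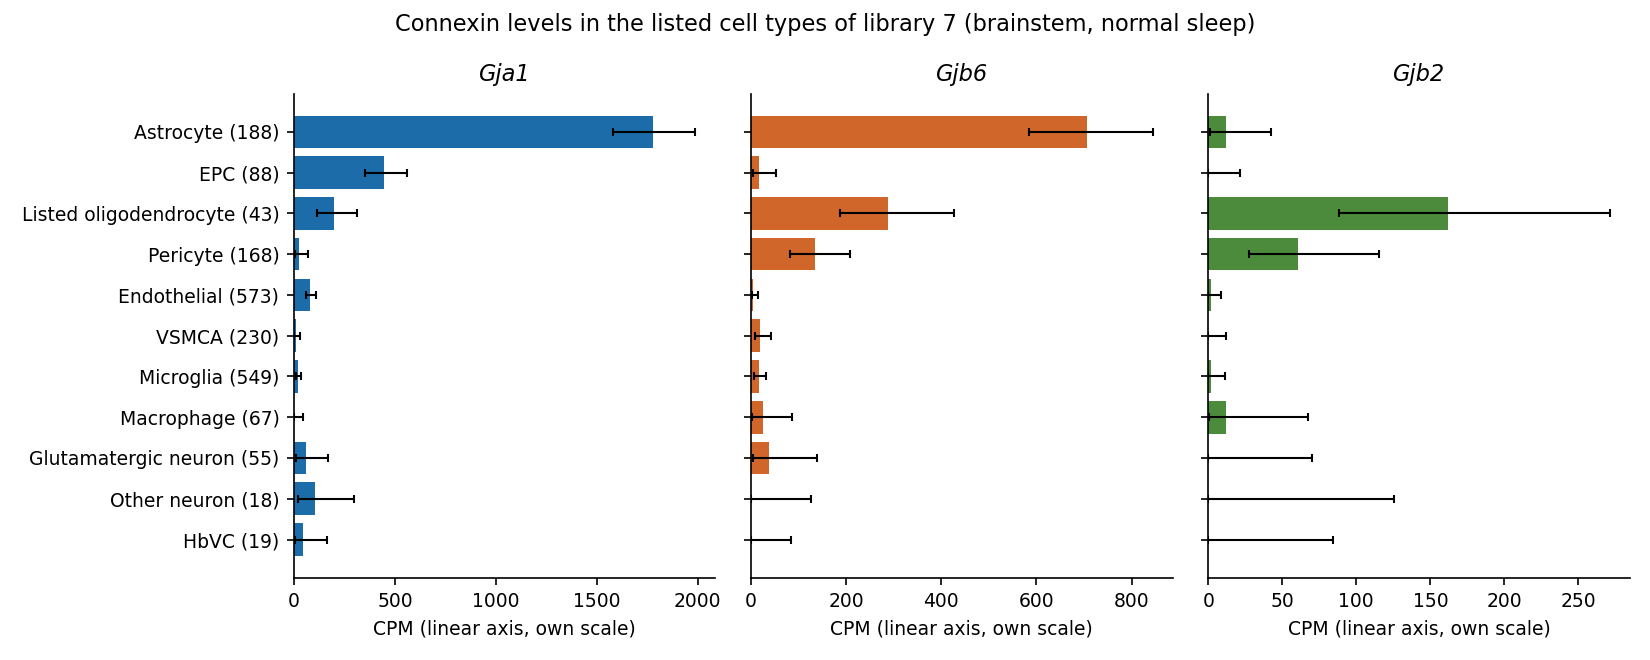
CPM (x axis, linear, with its own scale in each panel) of Gja1, Gjb6 and Gjb2 in the cell types listed for library 7, with the number of cells in brackets; bars are CPM of summed UMIs and whiskers exact 95% Poisson intervals. Astrocytes lead for Gja1 (1777 CPM) and Gjb6 (706 CPM), while for Gjb2 the 43 cells listed as oligodendrocytes, led by Prg4, stand highest (162 CPM).

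The pericyte list held cells of 2 kinds, and the connexin UMIs were split between them. When library 7 was clustered without the connexin genes, 117 of the 168 listed pericytes fell in the cluster with pericyte markers and 46 in the cluster with leptomeningeal fibroblast markers. The 117 cells held 0 UMIs of Gjb6 and 0 of Gjb2 in 83465 UMIs. The 46 cells held 19 of Gjb6, 320 CPM, and 9 of Gjb2, 152 CPM. Thus 19 of the 20 Gjb6 UMIs and 9 of the 9 Gjb2 UMIs of listed pericytes came from those 46 cells. Without them, listed pericytes stood at 11.3 CPM for Gjb6 and 0 for Gjb2, a comparison added after the data had been seen.

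Shares of cells depend on depth, so each cell was also thinned to 500 UMIs. Gja1 was then found in 108 of 185 astrocytes, 58.4% (50.9 to 65.6), in 19 of 88 EPC, 21.6% (13.5 to 31.6), and in 24 of 570 endothelial cells, 4.21% (2.72 to 6.2). Gjb6 was found in 55 of 185 astrocytes, 29.7% (23.2 to 36.9), and in 2 of 88 EPC. Microglia, which should lack both genes, gave 0.738% for Gja1 and 0.923% for Gjb6 in 542 thinned cells, taken here as the background. Where these UMIs came from was not tested. Before thinning, 3 of the 10 Gja1 UMIs of listed microglia lay in 1 cell that fell in the astrocyte cluster of library 7. Without thinning, microglia had a UMI of Gja1 in 1.46% of cells and of Gjb6 in 1.46%, at a median of 796 UMIs per cell against 771 in astrocytes. Gjb6 in EPC, VSMCA and neurons overlaps this background.

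Against the other listed cells, Gja1 was 19.4-fold and Gjb6 16.6-fold higher in astrocytes, after adding 10 CPM to both sides. Both passed 4-fold, as did 3.38% of the 5703 genes with 50 or more UMIs, and they ranked 32 and 42 among these. The median ratio over all 5703 genes was 0.776. Among 15 genes for proteins that work with astrocyte junctions and end-feet, 12 could be tested and 7 passed 4-fold, with a median ratio of 6.35 over the 12. Aqp4, the water channel of astrocyte end-feet, was 22.2-fold higher, at 682 CPM in astrocytes. Hepacam, a cell adhesion protein that gathers Cx43 at junctions, was 17.9-fold higher at 418 CPM, and Mlc1, a membrane protein that binds it, 9.82-fold higher at 424 CPM. Kcnj10, a potassium channel, was 14.3-fold and Atp1b2, a subunit of the sodium pump, 12.1-fold higher. Cdh2, a cadherin of cell contacts, was 5.14-fold and Dtna, a dystrophin-associated protein, 7.56-fold higher. The other 5 ranged from 0.127 for Cav1, a caveolar protein, to 1.9, and the remaining 3 had under 50 UMIs.

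In level, Gja1 in astrocytes (1777 CPM) lay near Atp1b2 at 1565 CPM (1382 to 1765), and Gjb6 (706 CPM) near Aqp4, with overlapping intervals in both pairs. Over the 8 listed types of 50 or more cells, the 5 genes whose log2(CPM + 10) followed Gja1 most closely were Chpt1 (Pearson r = 0.97), Kcnj10 (0.96), Srpk2 (0.96), Mlc1 (0.95) and Fabp7 (0.95), of which Kcnj10 and Mlc1 are on the partner list. For Gjb6 they were Mmd2 (0.93), F3 (0.92), Ankfy1 (0.91), Aldh1a1 (0.90) and Dfna5 (0.89). The points share 1 library and differ in depth, so these are descriptions.

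Of the whole family, 23 connexin and pannexin genes were looked for and 14 were in the table. With 20 or more UMIs in the listed cells there were 5, the 3 described and Gja4 and Gjc1, and the other 9 had from 0 to 16. Gja4, a connexin of vessel walls, stood at 279 CPM in VSMCA and 237 CPM in pericytes, against 17.6 in astrocytes. Gjc1, known from smooth muscle and heart, stood at 153 CPM in endothelial cells, 122 in pericytes and 87.6 in VSMCA, against 11.8 in astrocytes. Both were lower in astrocytes than in the other listed cells, with ratios of 0.339 and 0.263. Endothelial cells thus carried Gja1 (53 UMIs) and Gjc1 (99 UMIs), with 18 UMIs of Gja4. Of the 45 endothelial cells with a Gja1 UMI, 0 held Gja4, which allows up to 7.87%, against 3.41% (2.03 to 5.33) of those without, intervals that overlap.

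**Figure D2:**
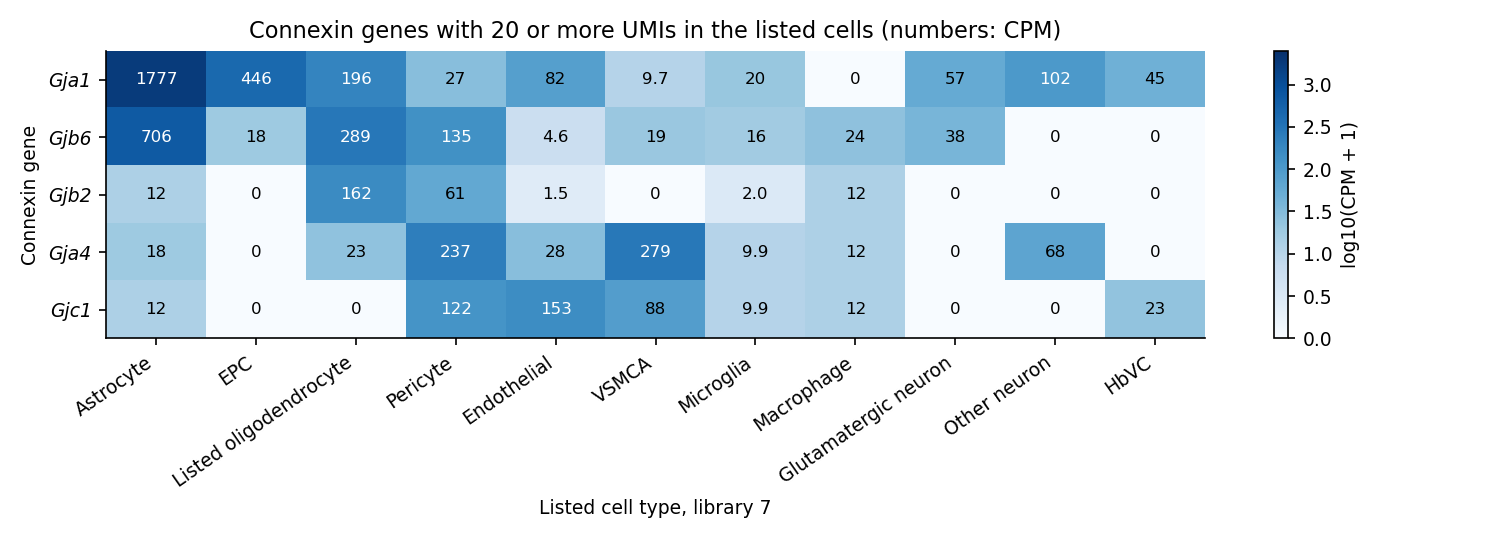
CPM of the 5 connexin genes with 20 or more UMIs in the listed cells (rows) by listed cell type of library 7 (columns); shading is log10(CPM + 1) and the printed numbers are CPM. Gja1 and Gjb6 are highest in astrocytes, Gja4 in VSMCA and pericytes, and Gjc1 in endothelial cells.

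In astrocytes Gja1 outnumbered Gjb6. The listed astrocytes held 2.52 Gja1 UMIs for each Gjb6 UMI (2.03 to 3.14), against 25.3 in EPC and 17.7 in endothelial cells, where Gjb6 had 3 UMIs. In the Prg4-led listed cells the ratio was 0.68, with an interval (0.345 to 1.31) that spans 1. In listed pericytes it was 0.2 (0.0497 to 0.597), from 4 and 20 UMIs, of which the 46 cells in the leptomeningeal cluster held 2 and 19. As a share of both genes' UMIs, Gja1 made up 71.6% (67 to 75.8) in astrocytes, 40.5% (25.6 to 56.7) in the Prg4-led cells and 16.7% (4.74 to 37.4) in listed pericytes. The intervals of the first and the other 2 do not overlap. Per cell, 53 astrocytes held 1 UMI of Gja1, 28 held 2, 27 held 3 and 25 held 4 or more. For Gjb6, 53 held 1, 21 held 2, 4 held 3 and 3 held 4 or more.

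At equal depth the 2 transcripts were found in overlapping sets of astrocytes. Of 185 listed astrocytes thinned to 500 UMIs, 35 held both, 73 Gja1 only, 20 Gjb6 only and 57 neither. Gjb6 was found in 32.4% (23.7 to 42.1) of cells with Gja1 and in 26% (16.6 to 37.2) of cells without, a difference of 6.43 percentage points (-7.78 to 19.9). In astrocyte-like cells of the 9 libraries, named from clusters as given below, the share was higher among cells with Gja1 in 7 of 9 libraries, and the 2 intervals overlapped in 9 of 9. Only 2602 of 4772 astrocyte-like cells had the 500 UMIs needed. A link between the 2 within cells was not detectable at this depth.

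Over whole libraries the 3 genes ranged widely. Gja1 stood at 375, 451, 290, 95.1, 165, 66.7, 198, 324 and 334 CPM in libraries 1 to 9. Gjb6 stood at 215, 379, 148, 35.6, 103, 6.56, 76, 131 and 105 CPM. Gjb2 stood at 8.54, 12.9, 5.72, 3.28, 11.3, 1.28, 12.8, 16.6 and 13.7 CPM, from 7 to 67 UMIs a library. Library 6 was lowest for all 3, and library 2 was highest for Gja1 and Gjb6 and library 8 for Gjb2. The highest level was 6.76 times the lowest for Gja1, 57.7 times for Gjb6 and 13 times for Gjb2. Without library 6 these were 4.74, 10.6 and 5.05 times, and without library 2 the value for Gjb6 was 32.8 times, comparisons added after the data had been seen. In such sums, fewer cells of a type and less RNA per cell cannot be told apart. Astrocyte-like cells made up 40.7%, 39.3% and 32.1% of the cells of libraries 1 to 3, from 8.47% to 13.5% in libraries 7 to 9, and 4.87%, 8.5% and 0.587% in libraries 4 to 6, where Gh is high.

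To separate these, cells of all libraries were clustered without the connexin and partner genes, and clusters were named "-like" from marker genes. The 4772 astrocyte-like cells held 59.7% of all Gja1 UMIs, 69.9% of all Gjb6 UMIs and 24.3% of all Gjb2 UMIs. EPC-like cells held 19% of Gja1, 1.55% of Gjb6 and 2.11% of Gjb2. Leptomeningeal fibroblast-like cells, 836 in all, held 2.77% of Gja1, 12.2% of Gjb6 and 62.3% of Gjb2. Clusters with markers of several classes held 6.97%, 6.64% and 3.87%. By a rule set after seeing the clusters they were kept out of the named classes, and they made up from 0.358% to 14.1% of the cells of a library.

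The source of the UMIs differed between libraries. Astrocyte-like cells held 84.6% to 89.8% of the Gja1 UMIs in libraries 1 to 3, 57.3% and 63.7% in libraries 7 and 8, and 32.6% to 39.7% in libraries 4, 5 and 9. In library 6 they held 4.64% and EPC-like cells 54.1%. For Gjb6 the astrocyte-like share ran from 13.9% to 88.5%, with a median of 61.2%. For Gjb2 the leptomeningeal share ran from 36% to 78.9%, with a median of 56.1%, and the astrocyte-like share from 0 to 60%. In libraries 1 and 2 more Gjb2 UMIs lay in astrocyte-like than in leptomeningeal cells, in the other 7 fewer. The counts were small, with 7 against 6 UMIs in library 1, 15 against 9 in library 2 and 4 against 5 in library 4. Single UMIs thus set the order in libraries 1 and 4.

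**Figure D3:**
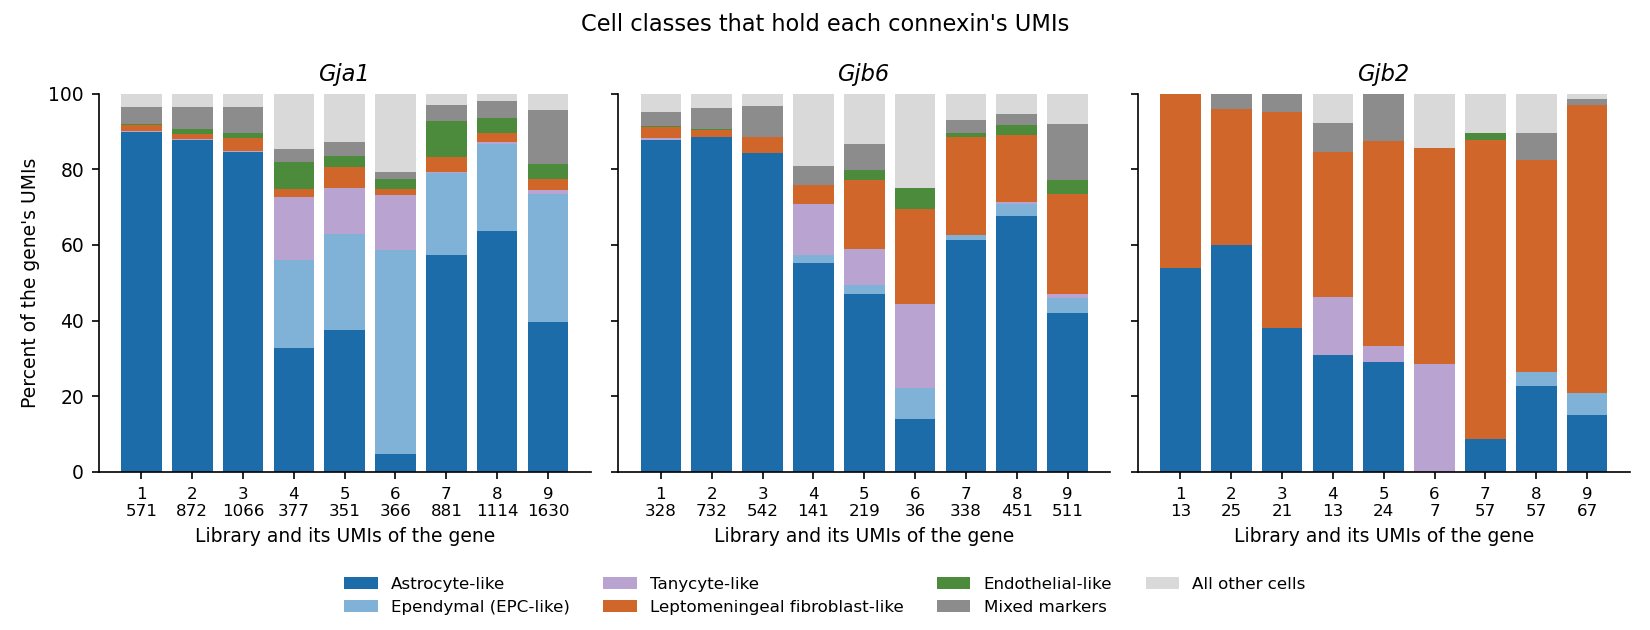
Percent of each gene's UMIs (y axis) held by each class of cells, by library (x axis, with the number of UMIs of the gene under the library number). Astrocyte-like cells (dark blue) hold over 80% of Gja1 and Gjb6 UMIs in libraries 1 to 3, EPC-like cells (light blue) hold 54.1% of Gja1 in library 6, and leptomeningeal fibroblast-like cells (orange) hold 36% to 78.9% of Gjb2.

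Within astrocyte-like cells the libraries were closer to each other for Gja1 and Gjb6. For Gja1 this did not hold when only cells of at least 1000 UMIs were kept. With all astrocyte-like cells, Gja1 stood at 1140, 1510, 1308, 1122, 1319, 680, 1889, 2105 and 1740 CPM in libraries 1 to 9, from 17 UMIs in library 6 and 123 to 902 elsewhere. Libraries 7, 8 and 9 were the 3 highest, and the intervals of libraries 8 (1953 to 2265) and 7 (1728 to 2061) lie above those of libraries 1 to 6, where the highest upper bound is 1621. That of library 9 (1609 to 1880) overlaps library 2's. Gjb6 had another order, with 640, 1279, 663, 712, 1029, 200, 774, 904 and 576 CPM. Library 2 was highest (1183 to 1382), and its interval overlaps only that of library 5 (840 to 1248). Gjb2 stood between 0 in library 6 and 70 CPM (28.1 to 144) in library 5, with a median of 26.9 CPM and a UMI in 0% to 2.63% of cells. It was above endothelial-like, microglia-like, neuron-like and VSMCA-like cells in 8 of 8 libraries with both, with intervals apart in 3, 2, 4 and 1. It was above EPC-like cells in 5 of 5, with intervals apart in 3, and below leptomeningeal fibroblast-like cells in 7 of 7.

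The spread, the highest over the lowest of the 9 libraries, was 3.1-fold for Gja1 and 6.4-fold for Gjb6. Both rest on library 6, with 23 astrocyte-like cells. Over the 8 libraries with at least 50 such cells, which were chosen after the data had been seen, the spread was 1.88-fold for Gja1 and 2.22-fold for Gjb6. Over the 176 genes with 50 or more UMIs in each of those libraries, a cut also added later, the median spread was 2-fold. Of these genes, 58.5% had a larger spread than Gja1 and 36.4% a larger one than Gjb6. Neither connexin stood out from the other genes in this added measure. The planned cut, 100 UMIs in each of the 9 libraries, left 13 genes with 0 of the connexins among them. A spread of at least 2-fold was found in 84.6% of the 13. Gjb2, with as few as 4 UMIs in 1 of the 8 libraries, was not measured.

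**Figure D4:**
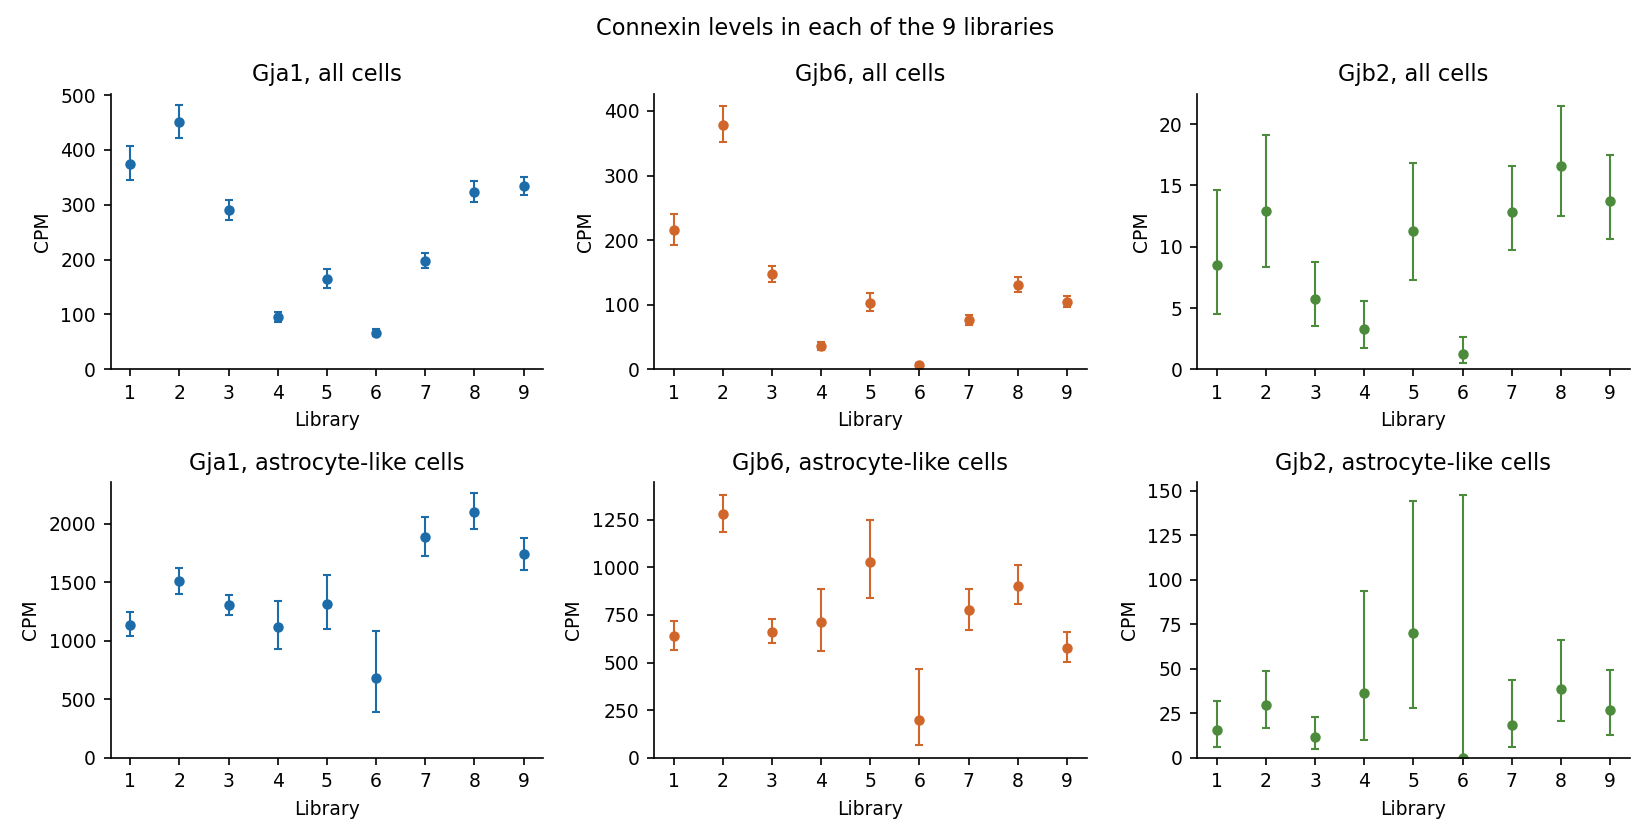
CPM (y axis, linear from 0) of Gja1, Gjb6 and Gjb2 in all cells (top) and in astrocyte-like cells (bottom) of each of the 9 libraries (x axis); points are CPM of summed UMIs and whiskers exact 95% Poisson intervals. In astrocyte-like cells Gja1 is highest in library 8 (2105 CPM) and Gjb6 in library 2 (1279 CPM), and both are lowest in library 6, which has 23 such cells.

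Libraries 1 to 3 and 4 to 9 drew their astrocyte-like cells from different clusters. The cluster led by Agt held 78.2% to 97.9% of them in libraries 4 to 9 and 0.454% to 1.81% in libraries 1 to 3, whose cells lay in 2 clusters led by Htra1. Agt itself, which encodes angiotensinogen, stood at 20.3 to 68.9 CPM in astrocyte-like cells of libraries 1 to 3 and at 959 to 3188 CPM in libraries 4 to 9. Over all libraries, the Agt-led cluster had 1794 CPM of Gja1, and the Htra1-led clusters 1461 and 1197 CPM. Gjb6 stood at 757, 792 and 880 CPM in the same order, with overlapping intervals between neighbours. These sums weigh the libraries unequally, and by library the balance had no single order of clusters. Gja1 UMIs per Gjb6 UMI were 1.82, 1.07 and 1.57 in the larger Htra1-led cluster in libraries 1, 2 and 3, and 1.58, 1.43 and 2.14 in the smaller. In the Agt-led cluster they were 1.6 and 1.26 in libraries 4 and 5, and 2.46, 2.34 and 3.02 in libraries 7, 8 and 9. Median UMIs per cell in these clusters were 701, 648 and 378, and the part of depth in these differences was not tested.

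The balance of the 2 connexins varied between libraries within astrocyte-like cells. Gja1 UMIs per Gjb6 UMI were 1.78, 1.18, 1.97, 1.58 and 1.28 in libraries 1 to 5, 3.4 in library 6, and 2.44, 2.33 and 3.02 in libraries 7, 8 and 9. The lowest, in library 2 (1.06 to 1.31), and the highest of a library with at least 50 such cells, in library 9 (2.59 to 3.55), do not overlap. Libraries 7 to 9 lay above libraries 1 to 5, but the intervals of libraries 7 (2.07 to 2.88) and 8 (2.03 to 2.67) overlap those of libraries 3 and 4, and that of library 8 also that of library 1. Gja1 outnumbered Gjb6 in 9 of 9 libraries, with an interval that reaches 0.983 in library 5.

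EPC-like cells held Gja1 at a nearly constant level and almost no Gjb6. In the 6 libraries with at least 50 such cells, Gja1 stood at 464, 475, 448, 455, 435 and 489 CPM in libraries 4 to 9, a spread of 1.12-fold with overlapping intervals. Gjb6 stood between 6.79 and 26.7 CPM. In the 5 libraries with both classes it was above the level of microglia-like cells, which should lack it, in 3, with intervals apart in 0. Gja1 per Gjb6 ran from 17.8 to 66, with a median of 27.7. Gja1 was lower in EPC-like than in astrocyte-like cells in 5 of 5 libraries with both, with intervals apart in each.

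Tanycytes line the floor of the third ventricle. The tanycyte-like cells, a cluster led by Rax, reached 50 cells only in libraries 4, 5 and 6, where Gh is high. Whether they are tanycytes was not tested. The name depended on the clustering. At Leiden resolution 0.5 no cluster was named tanycyte-like, and a cluster of 1156 cells was named pituitary stem or folliculostellate-like. The tanycyte-like cells had less Gja1 than EPC-like cells in 3 of 3 libraries, with intervals apart in each. Their Gja1 level was 264, 279 and 277 CPM, and their Gjb6 level 79.7, 139 and 41.8 CPM. Gjb6 was above that of EPC-like cells in 3 of 3 libraries, with intervals apart in 2. Gja1 per Gjb6 was 3.32, 2 and 6.62, below that of EPC-like cells in each. In the same 3 libraries, pituitary stem or folliculostellate-like cells had Gja1 at 60.9 to 147 CPM and Gjb6 at 3.53 to 32.6 CPM.

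Leptomeningeal fibroblast-like cells, of the membranes around the brain, were the class in which Gjb2 was highest. In the 7 libraries with at least 50 such cells, Gjb2 stood at 277, 204, 112, 201, 171, 191 and 182 CPM in libraries 2, 3, 4, 5, 7, 8 and 9. It was above the astrocyte-like level in 7 of 7, with intervals apart in 5, and above the EPC-like level in 5 of 5. It was found in 8.47% to 19.2% of the cells of a library. Gjb6 in these cells stood at 400, 392, 157, 620, 330, 477 and 482 CPM in the same libraries, below astrocyte-like cells in 7 of 7 and above endothelial-like cells in 7 of 7. Gja1 stood between 133 CPM in library 7 and 647 CPM in library 3, with a median of 180 CPM. Over all libraries these 836 cells held 404 UMIs of Gjb6, 200 of Gja1 and 177 of Gjb2. Gja1 made up 33.1% (29.4 to 37) of the Gja1 and Gjb6 UMIs, against 65.2% (64 to 66.3) in astrocyte-like cells. In libraries 2, 3 and 4, with 55 to 59 such cells each, the share was 43.5%, 62.3% and 53.3%, with intervals that span 50%. The class took in cells of different kinds. In library 7 it held 39 of the 43 Prg4-led listed cells, with Gjb2 at 169 CPM, and 48 listed pericytes, with Gjb2 at 144 CPM.

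**Figure D5:**
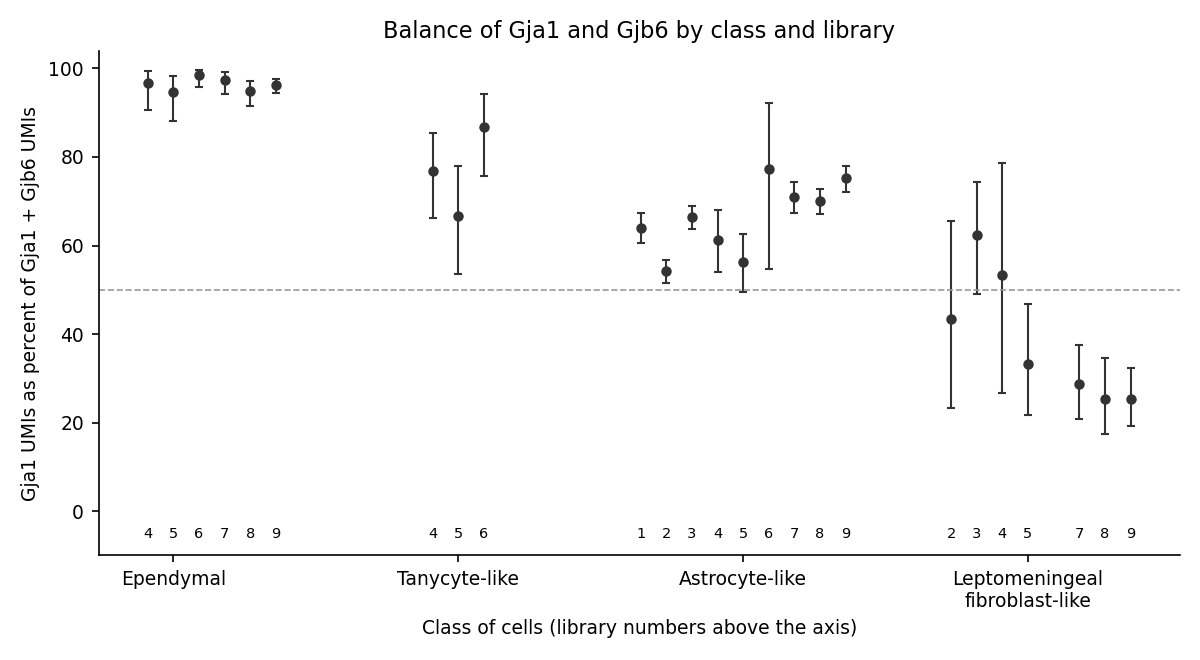
Gja1 UMIs as a percentage of Gja1 and Gjb6 UMIs together (y axis) in 4 classes of cells, with 1 point for each library (numbers above the axis) of at least 50 such cells, and library 6 also for 23 astrocyte-like cells; whiskers are exact 95% Clopper-Pearson intervals and the dashed line marks equal numbers. EPC-like (ependymal) cells lie at 94.7% or more, astrocyte-like cells between 54.1% and 77.3%, and leptomeningeal fibroblast-like cells of libraries 5, 7, 8 and 9 below 50%.

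Endothelial-like cells had Gja1 at a median of 85.1 CPM over 9 libraries, above microglia-like cells in 7 of 8 libraries and with intervals apart in 4. The highest level was 165 CPM in library 4, and the lowest, in library 1, was 19.8 CPM from 1 UMI, below the 33.7 CPM of microglia-like cells there. Gjb6 in the same cells had a median of 17.6 CPM, and Gjb2 had 1 UMI in 3356 cells. Neuron-like cells had a median of 21.2 CPM of Gja1 and 19.1 CPM of Gjb6, close to the medians of microglia-like cells, 25 and 26.5 CPM. Pericyte-like cells had 6 UMIs of Gja1 and 4 of Gjb6 in 617 cells over all libraries, 14.6 and 9.72 CPM, against 257 CPM of Gja4.

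Over the 8 libraries with at least 50 astrocyte-like cells, the level of Gja1 in those cells was followed most closely by Pla2g7 (Pearson r = 0.92), mt-Atp6 (0.89), mt-Cytb (0.86), mt-Nd4 (0.80) and Serpine2 (0.79). For Gjb6, the 5 nearest included Tsc22d3 (0.91), F3 (0.81), Acsl3 (0.78) and Ntsr2 (0.76). F3, which encodes tissue factor, was among the 5 nearest to Gjb6 over listed types and over libraries. Tsc22d3 encodes a glucocorticoid-induced protein. These are descriptions, added after the data had been seen, over 8 points that differ in depth and in the clusters they come from.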

How the data were processed

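Male mice were sampled in 3 sleep groups and 3 brain regions, with 3 mice pooled per library. The authors deposited raw UMI counts for each gene and cell, as whole numbers without normalization. Per the paper's methods and the labels, tissue was dissociated with papain, cleared with myelin removal beads, and run on the 10x Chromium kit (version 2 chemistry). Reads were mapped to GRCm38 and filtered with Cell Ranger 2.2.0. The annotation release is not given in the sources used here. The members and lists were chosen with earlier results of these data known.

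Cell types of library 7 came from the study's list, of which 1999 cells are held here. Cells were clustered on 2000 variable genes, without the connexin and partner lists, with 13 components, 20 neighbours and Leiden resolution 1 (scanpy 1.11.5, leidenalg 0.10.2). Names were given to clusters in which 3 or more markers of a class were 2-fold higher and found in 10% of the cells. The ranking of names and the rule that 5 markers of another class make a cluster mixed were set after the first clusters were seen. Scrublet called 0 to 65 doublets a library and 140 in all, under 0.5% of the 29571 cells, so the caller was not relied on, and all cells were kept. With 1 library per group, no test or p-value was computed. Levels are CPM of summed counts, and the scripts were tested on simulated data. Genes named are the members, connexins with 20 or more UMIs in listed cells, partners past 4-fold, and the 5 genes most similar to a member. Marker genes, cluster-leading genes, Gh, Cav1 and Gm4491 were also named, after their values were seen. Some genes that these rules name are not reported here.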

Additional observations from a re-analysis of the deposited data

How the results depend on the processing

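Under the alternatives 87 values were recomputed, and 20 left the counting interval of the reported value (or 1.5 times a reported count). The other 67 stayed within it. A change of direction was not scored. The Gjb2 ratio of listed astrocytes to other listed cells, 0.967, stood between 0.945 and 1.21 under the alternatives. Most Gjb2 UMIs of those other cells lay in the Prg4-led cells and pericytes. With only cells of at least 1000 UMIs, levels in listed astrocytes were lower, 1448 CPM for Gja1 and 514 CPM for Gjb6. Their ratios to other listed cells were then 12.9 and 11.2, still past 4-fold. The spread over 9 whole libraries became 6.44-fold for Gja1, 16.1-fold for Gjb6 and 27.9-fold for Gjb2. That of Gja1 in astrocyte-like cells became 7.58-fold, wider than over whole libraries. With totals that leave out mitochondrial and hemoglobin genes, Gja1 in listed astrocytes was 2034 CPM. Leaving out the pituitary hormone genes as well gave whole-library spreads of 4.39-fold for Gja1 and 37.5-fold for Gjb6. The mean over cells gave a ratio of 26 for Gja1. With all genes that have a UMI, 425 genes passed 4-fold in place of 193. Added after the data were seen, leaving out library 6 gave whole-library spreads of 4.74-fold for Gja1, 10.6-fold for Gjb6 and 5.05-fold for Gjb2, and leaving out library 2 gave 5.62-fold and 32.8-fold for the first pair. In astrocyte-like cells, leaving out library 6 gave 1.88-fold and 2.22-fold, and leaving out the leptomeningeal part of the listed pericytes gave 11.3 CPM for Gjb6 and 0 for Gjb2. Subtracting free RNA, taken as the level of the lowest type, could not change a value, since that level was 0 for each gene. The values of this alternative are counted among the 67.

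Clusters of library 7 could not replace the Prg4-led list, since the matching cluster has no name, so that value was not computed. No paired analysis was possible because each group is 1 library. Depth limits Gjb2 most, with 28 UMIs in listed cells, and the shares of cells of libraries 1 and 2, whose astrocyte-like cells have medians of 394 and 362 UMIs. No sleep group or region was compared.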
